A study of Mus musculus with 8 samples.

Results

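miR-155-5p, the guide strand of the Mir155 hairpin, was followed in small RNA libraries of mouse CD8+ T cells. It is 1 of 1978 mature microRNAs (miRNAs) in the deposited table and was found by its name there, mmu-miR-155-5p. The libraries came from spleens of C57BL/6 mice, an inbred laboratory strain, that were adult (12 weeks, n = 4) or neonatal (5 to 7 days after birth, n = 4). CD8+ T cells, which can kill virus-infected cells, had been enriched with magnetic beads against CD8a, and no allele or treatment set the groups apart. The design asked how small RNAs differ between the ages. The labels do not say whether a sample was 1 animal or a pool, so p-values speak to the spread among these 8 samples alone, and part of it may be technical.

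miR-155-5p is made from the noncoding host RNA Mir155hg. In mice, antigen receptor and NF-kB signals induce this RNA, and CD8+ T cells without miR-155 expand poorly in infection. The miRNA guides Argonaute to messenger RNAs that match its seed, among them those of brakes on cytokine and lipid signalling. The passenger strand miR-155-3p comes from the other arm of the hairpin and is usually scarce.

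The hairpin lies on the plus strand at chr16:84714140-84714204 (mouse build GRCm38, the same assembly as mm10). In GENCODE M21 this is within exon 2 of the long noncoding gene Mir155hg. It is shown first with both mature arms in capitals, to show where the counted strands lie, and then each arm with its seed (bases 2 to 8) in capitals. The sequences are RefSeq's on GRCm38.p6, 5′ to 3′.
Mir155 hairpin: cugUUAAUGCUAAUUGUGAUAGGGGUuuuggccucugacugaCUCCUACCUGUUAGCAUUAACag
miR-155-5p: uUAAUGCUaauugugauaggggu
miR-155-3p: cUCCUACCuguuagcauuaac
In a search of 1679 mature mouse miRNAs by name, no other one shared bases 2 to 7 with miR-155-5p. The search may miss some miRNAs of the deposited table, since only 314 of the 375 tested ones had a sequence under their name.

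A messenger RNA that matches the seed holds the letters AGCATTA, or AGCATTAA with the base opposite position 1. Messenger RNAs were not measured here. The sites are printed to show what the seed pairs with in 3 targets known from mouse studies, with the match in capitals, from GENCODE M21 transcripts. Inpp5d encodes the lipid phosphatase SHIP1, Socs1 a suppressor of cytokine signalling, and Spi1 the transcription factor PU.1. The sites lie in 3′ untranslated regions at chr1:87719824-87719845 (plus strand), chr16:10784206-10784227 (minus strand) and chr2:91115423-91115444 (plus strand).
Inpp5d: agatgtttttaaaaAGCATTAA
Socs1: tgccgctgtgccgcAGCATTAA
Spi1: accccgccggccatAGCATTAA
On the sense strand, the 8 letters stood in the longest annotated 3′ untranslated region of 9 of 10 textbook targets and of 2.99% of 21020 genes. Those 10 were listed because they are known targets, so the count describes the list only.

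miR-155-5p was higher in adult than in neonatal cells in every library. It had 1554, 1677, 2649 and 2235 counts in adult libraries 1 to 4, against 724, 1007, 771 and 1108 counts in neonatal libraries 1 to 4. Library totals were 1281032 to 2606630 counts in adult and 1454421 to 2416060 in neonatal libraries. Levels are given as CPM, counts scaled to a common library size after TMM, which aligns the libraries on the bulk of their miRNAs. On this scale miR-155-5p stood at 1509, 1174, 1259 and 1122 CPM in the adult libraries, against 386, 384, 336 and 396 CPM in the neonatal libraries. The groups did not overlap, and the lowest adult library held 2.83 times the CPM of the highest neonatal one. Of all tested miRNAs, 57.3% had no overlap between the groups, 30.9% with the adult libraries higher. In such bulk samples, fewer cells with miR-155-5p and less of it per cell cannot be told apart.

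**Figure D1:**
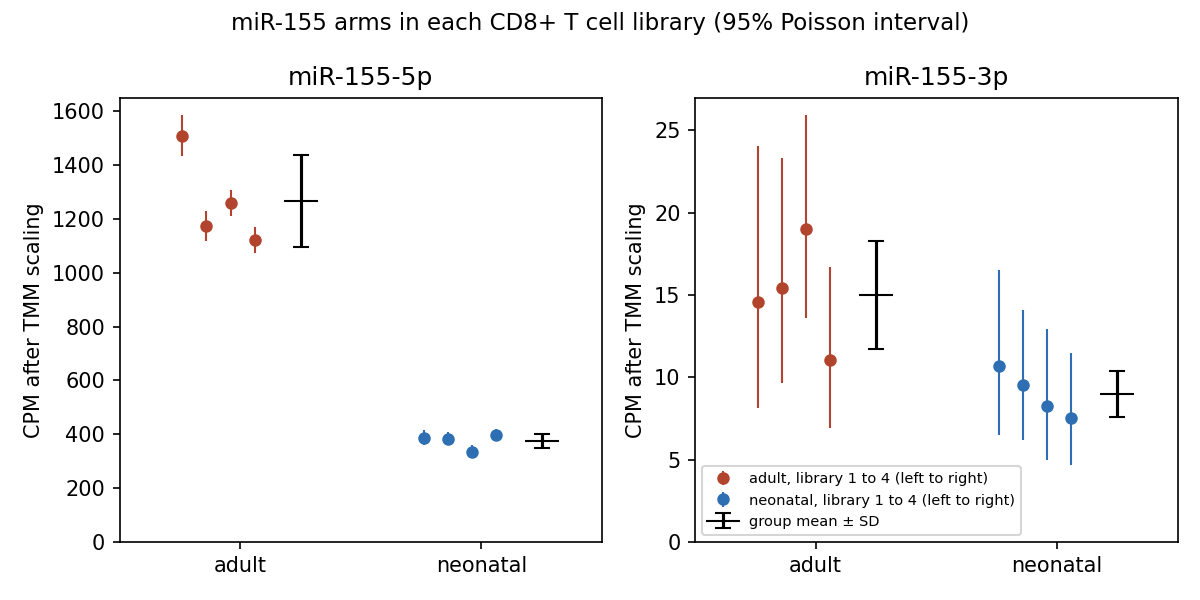
CPM after TMM scaling of miR-155-5p and miR-155-3p in each library, with the exact 95% Poisson interval of its count as a bar, and the group mean ± SD in black (n = 4 per group). The adult values of miR-155-5p (1122 to 1509 CPM) lie far above the neonatal ones (336 to 396 CPM), while for miR-155-3p the groups nearly touch.

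The group means were 1266 ± 172 CPM in adult and 376 ± 27 CPM in neonatal libraries (SD, n = 4 each). edgeR's quasi-likelihood test across 375 miRNAs gave a log2 fold change, adult over neonatal, of 1.75 ± 0.15 (SE), which is 3.37-fold, with a 95% interval of 1.44 to 2.07. The Benjamini-Hochberg adjusted p was 6.98e-07 by edgeR. The change is set in a comparison where many miRNAs differed: 63.2% of those tested passed the threshold of 0.05, 34.1% as higher and 29.1% as lower in adult libraries. Among the 128 called higher, whose median log2 fold change was 1.21, miR-155-5p ranked 29 by size, and it ranked 13 of 375 by p.

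Same-numbered libraries gave folds of 3.91, 3.06, 3.75 and 2.83, adult over neonatal, in pairs 1 to 4. The direction was the same in 4 of 4 pairs, which any matching of libraries would give, since the groups did not overlap. The spread between libraries exceeded counting error. The coefficient of variation was 13.6% in adult and 7.19% in neonatal libraries, where counting alone gives about 2.26% and 3.37%. The biological coefficient of variation that edgeR fitted to miR-155-5p was 15.97%, against a median of 20.3% over all tested miRNAs. Adult library 1 was the highest of its group, and without it the log2 fold change was 1.68.

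The size of the change depended on the scaling, its direction did not. With library totals in place of TMM the log2 fold change was 1.12 (2.17-fold), a shift close to the -0.63 by which the median miRNA moved. Relative to the median of all tested miRNAs miR-155-5p stood 1.71 higher with TMM and 1.70 higher with totals. A change of scaling moves all miRNAs by nearly the same amount, so this distance could hardly change. With an offset for GC content, described below, miR-155-5p stood 1.09 above the median. As a plain share it took 0.121%, 0.0925%, 0.102% and 0.0911% of all miRNA counts in adult libraries 1 to 4, against 0.0498%, 0.0476%, 0.0436% and 0.0459% in neonatal libraries. The groups did not overlap in this share either. Mean shares were 0.102% ± 0.0139 in adult and 0.0467% ± 0.00262 in neonatal libraries (two-sided exact permutation test, p = 0.0286, which is as low as n = 4 per group can reach). Exact sign flips of the 4 pairs gave p = 0.125, again the lowest value open to them. The 57.3% without overlap given above is for CPM after TMM, and the same was not counted for shares.

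**Figure D2:**
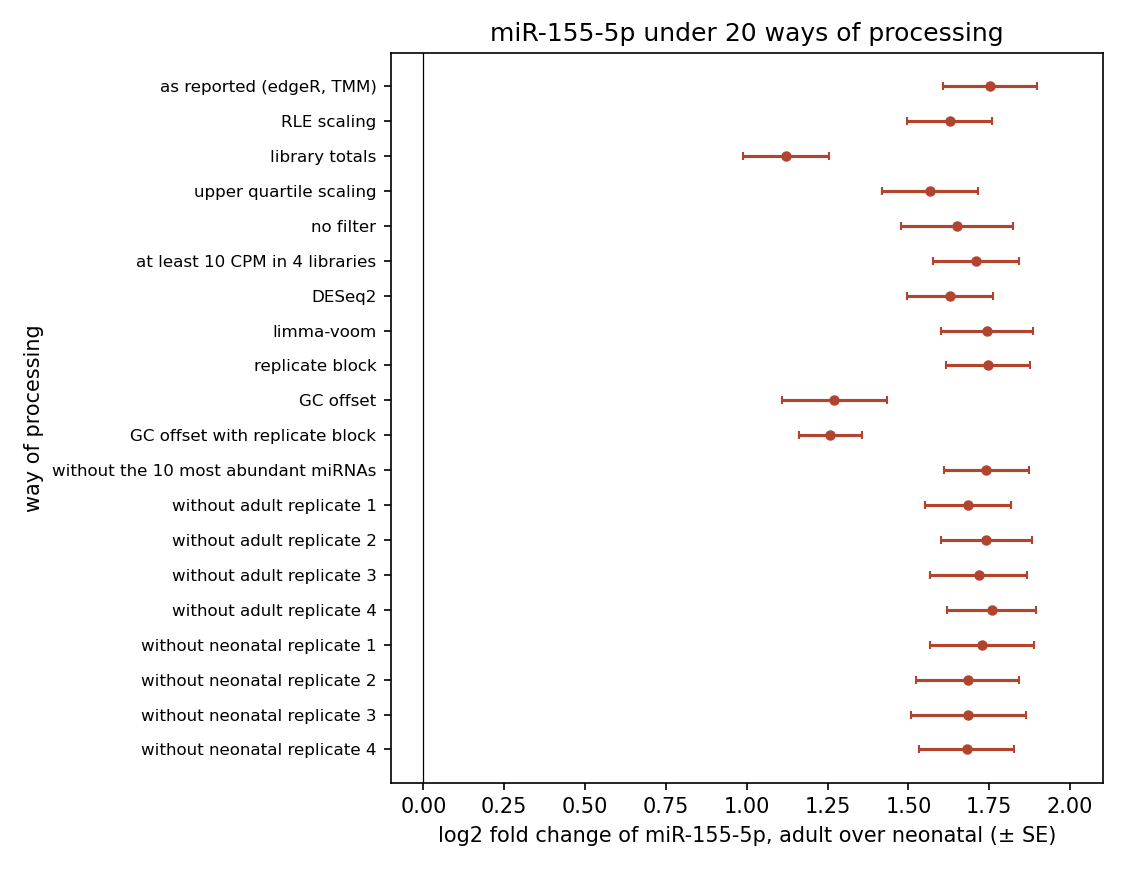
Log2 fold change of miR-155-5p, adult over neonatal, ± SE (x axis), under the reported fit and 19 other ways of processing (y axis). Values run from 1.12 with library totals to 1.76 without adult replicate 4, all above 0.

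The sequence of miR-155-5p is poor in G and C (34.8%, against a median of 47.8% over the 314 tested miRNAs with a sequence). With an offset for GC content its log2 fold change was 1.27 ± 0.16, and 1.26 ± 0.10 once the replicate block was added. It passed in both fits (edgeR's adjusted p of 2.75e-05 and 2.78e-07). Of the 52 other tested miRNAs within 5 percentage points of its GC content, 25 were called higher and 10 lower in adult libraries, with a median log2 fold change of 0.60. Over all tested miRNAs 34.1% were called higher and 29.1% lower, and the median was 0.05. Of the 52, 7 had a larger log2 fold change than miR-155-5p.

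By counts in a library, miR-155-5p ranked between 62 and 73 in the adult libraries and between 102 and 109 in the neonatal ones, where 608 to 787 miRNAs had a count. Its neighbours by mean level in adult libraries were miR-15b-3p (1267 ± 246 CPM) above and miR-340-5p (1215 ± 479 CPM) below. In neonatal libraries they were miR-19b-3p (386 ± 106 CPM) above and miR-652-3p (372 ± 42.8 CPM) below. Of the next ones in adult libraries, miR-342-5p (1330 ± 365 CPM) and miR-17-5p (1272 ± 86.2 CPM) stood above, and miR-211-5p (1213 ± 265 CPM) and miR-98-5p (1161 ± 191 CPM) below. In neonatal libraries miR-194-5p (428 ± 118 CPM) and miR-106b-5p (391 ± 131 CPM) stood above, and miR-139-3p (354 ± 35.0 CPM) and miR-24-2-5p (325 ± 98.7 CPM) below. None of these neighbours differed from miR-155-5p beyond the spread between libraries. Such ranks are approximate, since ligation of adapters favours some sequences over others.

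The passenger strand did not follow the guide in proportion. miR-155-3p had 15, 22, 40 and 22 counts in adult libraries 1 to 4, against 20, 25, 19 and 21 counts in neonatal libraries 1 to 4. These stood at 15.0 ± 3.27 CPM in adult and 9.0 ± 1.39 CPM in neonatal libraries, and the groups were separated by a narrow gap of 11.04 CPM (lowest adult) against 10.67 CPM (highest neonatal). Its log2 fold change of 0.75 ± 0.26 passed by edgeR (adjusted p = 0.0247). That call was lost with RLE scaling, upper quartile scaling, DESeq2, no filter and the GC offset (adjusted p of 0.0512 to 0.169), and with library totals, where the log2 fold change was 0.12 (adjusted p = 0.706). It was also lost without adult library 2 or 3 or without neonatal library 2, 3 or 4, at a log2 fold change of 0.56 to 0.70 (edgeR's adjusted p of 0.0683 to 0.131).

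The ratio of the arms within a library needs no scaling. The 5p arm had 104, 76.2, 66.2 and 102 counts for each 3p count in adult libraries 1 to 4, against 36.2, 40.3, 40.6 and 52.8 in neonatal libraries. All adult ratios lay above all neonatal ones. The mean log2 ratio was 6.38 ± 0.31 in adult and 5.36 ± 0.23 in neonatal libraries (SD, n = 4 each). The difference of 1.02 (2.03-fold, 95% interval from the exact permutation test 0.34 to 1.505) had p = 0.0286 (exact permutation test, two-sided), and p = 0.125 in the sign-flip test within pairs, the smallest possible in each case. Without 1 library at a time it stayed between 0.94 and 1.14. The ratio is not adjusted for GC content, which was 34.8% in the 5p arm and 42.9% in the 3p arm. With the GC offset the log2 fold change was 1.27 ± 0.16 for the 5p arm and 0.61 ± 0.27 for the 3p arm. The arm ratio was not tested with that offset.

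**Figure D3:**
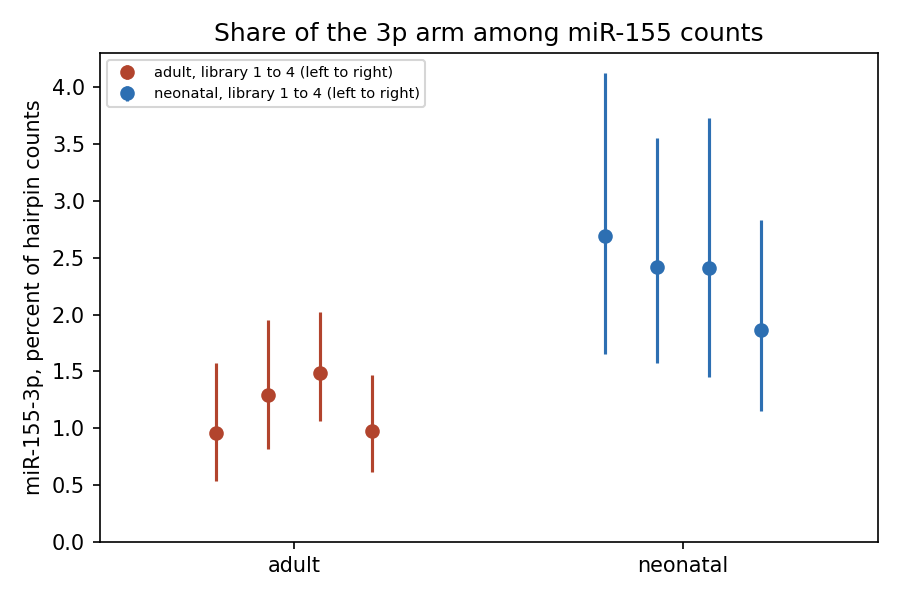
Percent of the miR-155 hairpin's counts that were of the 3p arm, per library, with exact 95% binomial intervals that cover counting error only. The adult libraries lie between 0.956% and 1.49% and the neonatal libraries between 1.86% and 2.69%.

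As a share of the hairpin's counts, the 3p arm took 0.956% to 1.49% in adult and 1.86% to 2.69% in neonatal libraries. The exact binomial intervals of single libraries overlapped between the groups, for example 1.06% to 2.02% in adult library 3 and 1.16% to 2.83% in neonatal library 4. The precision rests on only 99 counts of the 3p arm over all adult libraries and 85 over all neonatal ones. Shifts of this kind were common: the arm ratio did not overlap between groups for 37.8% of 82 hairpins with both arms tested, in 19.5% toward the 5p arm and in 18.3% toward the 3p arm in adult libraries. The shift of miR-155 ranked 25 of 82 by absolute size, where the median was 0.59.

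Set against other miRNAs of the same library, miR-155-5p was relatively higher in adult cells for most of them. Its ratio to another tested miRNA was higher in all adult than in all neonatal libraries for 290 of 374 miRNAs (77.5%), and lower in all for 10. This count is tied to the rank of miR-155-5p by log2 fold change (29 of 375) and was not compared with that of other miRNAs. Ratios to 8 miRNAs were tested. The largest difference was with miR-181a-5p, which tunes T cell receptor sensitivity: the log2 ratio was -2.85 ± 0.28 in adult and -4.80 ± 0.21 in neonatal libraries, a difference of 1.95. miR-21a-5p, which is induced in activated T cells, gave 1.57, and miR-342-3p, common in lymphocytes, 1.06. The differences were smaller for miR-16-5p, a broadly expressed miRNA (0.49, interval 0.07 to 1.03), and for miR-150-5p, abundant in mature lymphocytes (0.41, interval 0.03 to 0.89).

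The ratio to miR-146a-5p moved the other way. miR-146a-5p is the other well-known NF-kB induced miRNA of T cells, and it represses adaptors that feed NF-kB. It stood at 11706, 12325, 11143 and 11420 CPM in adult libraries 1 to 4, against 1465, 1797, 1335 and 1802 CPM in neonatal libraries. For each count of miR-155-5p there were 9.32 counts of miR-146a-5p in adult and 4.25 in neonatal libraries on average. The log2 ratio of miR-155-5p to miR-146a-5p was -3.21 ± 0.20 in adult and -2.08 ± 0.15 in neonatal libraries, a difference of -1.13 (interval -1.47 to -0.73).

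The sequences of miR-146a-5p and miR-221-3p are shown with their seeds in capitals, because the ratio of miR-155-5p to the first was lower in adult libraries and its ratio to the second showed no difference beyond the spread. Neither shares its seed.
miR-146a-5p: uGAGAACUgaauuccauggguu
miR-221-3p: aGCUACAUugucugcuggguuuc
With miR-221-3p, another miRNA of the activation list, no difference was found. The log2 ratio was 0.93 ± 0.31 in adult and 0.83 ± 0.16 in neonatal libraries, a difference of 0.10 with an interval of -0.38 to 0.71 (exact permutation test, two-sided, p = 0.657, adjusted p = 0.657). Nor did the ratio to miR-142a-3p, made across blood cells, pass (0.45, interval -1.10 to 2.09, exact permutation test, p = 0.343). Its adult values ranged widely, from -3.34 to -1.39. These ratios are not adjusted for GC content. With the GC offset the log2 fold change was 1.77 ± 0.14 for miR-221-3p and 1.27 ± 0.16 for miR-155-5p. Their ratio was not tested with that offset. The other 6 ratios each had p = 0.0286 and an adjusted p of 0.0381 over the 8 (exact permutation tests, two-sided), with no overlap between groups, and all had p = 0.125 within pairs. In leave-one-out fits the ratio to miR-150-5p lost its call without adult library 2 or any neonatal library, that to miR-16-5p without any adult library, and that to miR-21a-5p without neonatal library 2 or 4 (exact permutation p of 0.0571 to 0.0857).

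**Figure D4:**
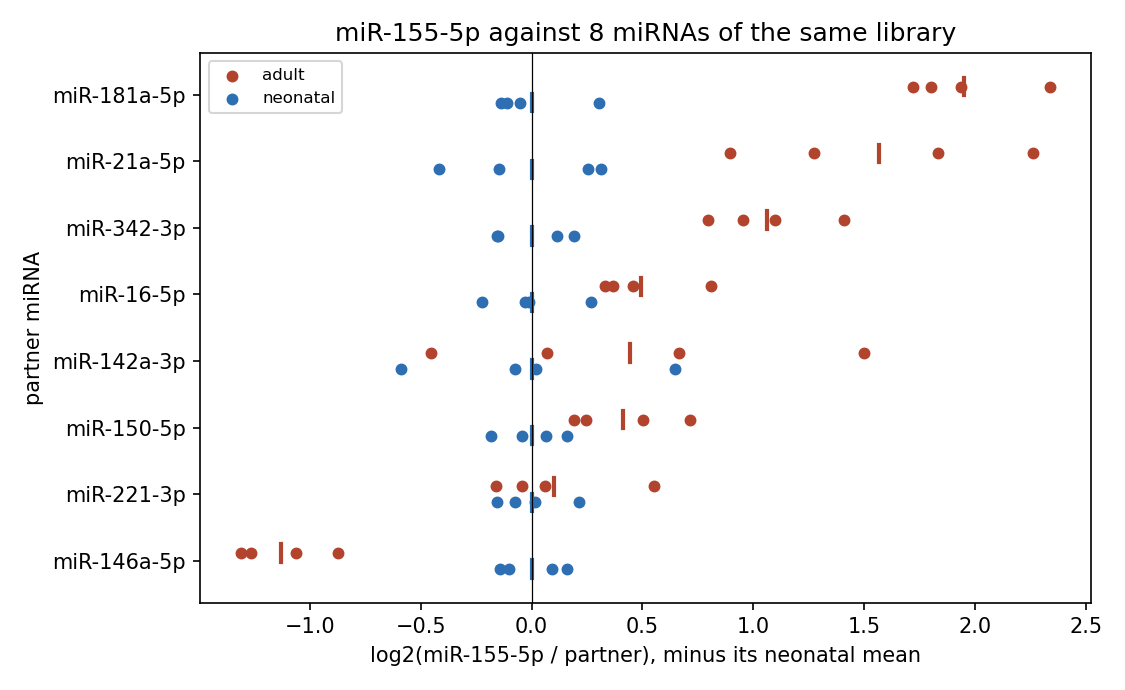
Log2 ratio of miR-155-5p to each of 8 miRNAs of the same library, minus its neonatal mean (x axis), by partner (y axis), with adult above neonatal libraries as points and group means as ticks. Adult points lie right of all neonatal ones for 5 partners, left of them for miR-146a-5p, and among them for miR-221-3p and miR-142a-3p.

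Among 12 miRNAs that follow T cell activation, 6 were called higher and 5 lower in adult libraries by edgeR, and 3 higher and 5 lower with library totals. With so few members the first counts are read beside the 34.1% called higher and 29.1% called lower over all tested miRNAs with TMM. Those shares do not apply to library totals, where the median log2 fold change over all tested miRNAs was -0.58. The counts with library totals are given without such shares and describe the list only. With TMM the median log2 fold change of the 12 was 0.41, beside 0.05 over all tested miRNAs. By log2 fold change miR-155-5p ranked 2 of the 12, after miR-146a-5p (2.86 ± 0.15). miR-221-3p (1.64 ± 0.15), miR-146b-5p (0.66 ± 0.15), miR-96-5p (0.64 ± 0.25) and miR-222-3p (1.01 ± 0.17), cut from the same transcript as miR-221-3p, were higher too. The calls of miR-146b-5p, miR-96-5p and miR-222-3p were lost with library totals. That of miR-96-5p was lost in 7 of the 11 alternatives that kept all libraries, and also when any 1 library other than adult library 1 was left out (0.44 to 0.67). miR-210-3p, induced by low oxygen, was lower (-2.65 ± 0.27), as were miR-182-5p (-0.81 ± 0.14), miR-183-5p (-1.60 ± 0.14), miR-31-5p (-1.87 ± 0.26) and miR-132-3p (-1.28 ± 0.28). miR-21a-5p was not called (0.19 ± 0.24). miR-155-5p was thus 1 of 3 members of the list called higher under both scalings, and members of the list moved in both directions.

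**Figure D5:**
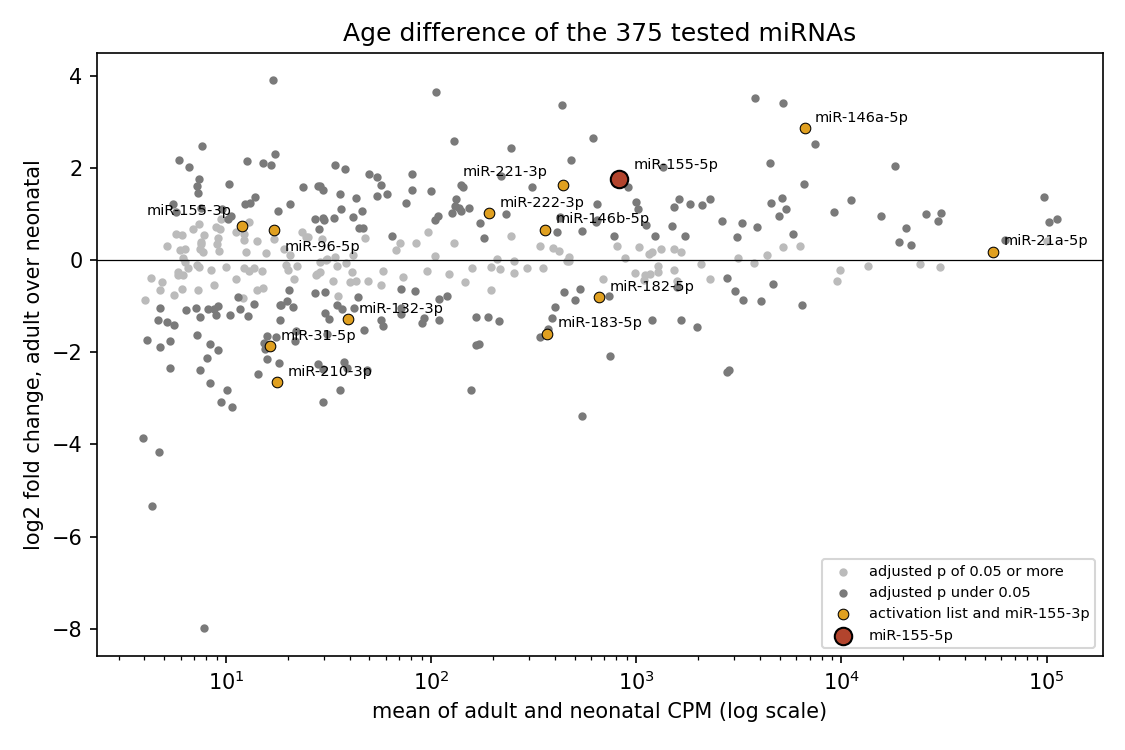
Log2 fold change, adult over neonatal (y axis), against mean CPM (x axis, log scale) for the 375 tested miRNAs. The activation list and miR-155-3p are in orange and miR-155-5p in red, at 1.75, below miR-146a-5p (2.86) and beside miR-221-3p (1.64).

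By the root mean square difference over libraries, miR-155-5p was nearest to miR-221-3p, with let-7c-5p close behind. Over the 167 other miRNAs that reached 100 CPM in one age or the other, the root mean square difference of centred log2 CPM over the 8 libraries was 0.22 for miR-221-3p, where the median miRNA had 0.79. Next came let-7c-5p (0.23), miR-139-5p (0.24), miR-99b-5p (0.24), miR-467a-5p (0.24), miR-467b-5p (0.26), miR-150-5p (0.27) and miR-669a-5p (0.29). Their log2 fold changes ran from 1.37 for miR-150-5p to 2.11 for miR-139-5p. The miR-467 and miR-669 miRNAs have near-identical copies, so their counts are uncertain. The measure is a description over libraries that share the age difference, and a small value need not mean the same order within a group. In adult libraries 1 to 4 the centred values were 1.13, 0.77, 0.87 and 0.71 for miR-155-5p. They were 0.63, 0.76, 0.97 and 0.92 for miR-221-3p, and 1.26, 0.75, 1.17 and 0.87 for let-7c-5p. Adult library 1 was thus highest for miR-155-5p and lowest for miR-221-3p.

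On chromosome 16 the nearest hairpin with a tested miRNA was Mir125b-2, 7068 kb before Mir155. Its product miR-125b-5p, which is also made from another locus, went the other way: it stood at 50.7 ± 12.2 CPM in adult and 130 ± 49.1 CPM in neonatal libraries (log2 fold change -1.37 ± 0.28, edgeR's adjusted p = 0.00105). None was found on the other side of Mir155.

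miRNAs of other cells were read in the same libraries, since magnetic enrichment can leave some. The calls of these short lists stand beside 29.1% called lower and 34.1% called higher over all tested miRNAs. The erythroid list summed to 120 to 252 CPM in adult and 308 to 775 CPM in neonatal libraries, with 3 of 3 tested members lower in adult. Among these, miR-486a-5p (70 to 148 counts in adult, 364 to 752 in neonatal libraries) and miR-486b-5p (70 to 156 and 371 to 783) were almost equal. They may not be separate measures. The endothelial list summed to 46.6 to 77.0 CPM in adult and 125 to 160 CPM in neonatal libraries (2 of 2 tested lower). The stromal list summed to 37.1 to 84.0 CPM in adult and 114 to 170 CPM in neonatal libraries (3 of 3 tested lower). Its untested members were near the floor. In adult and neonatal libraries, miR-199a-5p had 1 to 9 and 0 to 6 counts, miR-145a-5p 0 to 2 in both, and miR-214-3p 1 to 6 and 3 to 10. In their sums these 3 lists moved against miR-155-5p. The epithelial list, given with TMM scaling, moved with it, at 3896 to 4521 CPM in adult and 2718 to 3449 CPM in neonatal libraries (3 of 6 tested higher), and its part in the result was not tested. With library totals the list summed to 3132 to 3641 CPM in adult and 3529 to 3992 CPM in neonatal libraries, and these ranges overlap. By edgeR with TMM, miR-200a-3p (log2 fold change 2.17), miR-141-3p (2.03) and miR-203-3p (0.52) were called higher. Not called were miR-200b-3p (0.19), miR-429-3p (0.11) and miR-200c-3p (-0.27). Before scaling, miR-200b-3p had 1825 to 4000 counts in adult and 3096 to 4406 in neonatal libraries. The counts of miR-203-3p were 1271 to 3242 in adult and 1486 to 3611 in neonatal libraries. miR-200a-3p had 596 to 1978 counts in adult and 164 to 732 in neonatal libraries. miR-205-5p had at most 2 counts in adult and 4 in neonatal libraries, with 0 in 4 of the 8 libraries.

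Myeloid cells and B cells can also make miR-155. The myeloid miRNA miR-223-3p had 1 to 12 counts in adult and 2 to 20 counts in neonatal libraries, and miR-223-5p at most 7 in any library. The summed myeloid list stood at 2.85 to 9.10 CPM in adult and 3.49 to 8.54 CPM in neonatal libraries, ranges that overlap. The part of myeloid cells in the result was not tested. B cells have no miRNA on these lists, so their share was not measured. The blood cell list (miR-142a-3p, miR-142a-5p, miR-150-5p, miR-342-3p and miR-181a-5p) summed to 143488 to 210073 CPM in adult and 72937 to 75699.8 CPM in neonatal libraries. Most of each sum was miR-150-5p, at 103677 to 184322 CPM in adult and 51303.6 to 57692.9 CPM in neonatal libraries. Of the 5 members 4 were called higher, beside 34.1% of all tested miRNAs, and miR-181a-5p was not called (log2 fold change -0.21 ± 0.14). With library totals the list summed to 113047 to 168859 CPM in adult and 87618.3 to 95061.2 CPM in neonatal libraries. This list marks blood cells and lymphocytes but does not tell CD8+ T cells from others.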

How the data were processed

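The table deposited by the authors holds estimated counts, without normalization, for each pair of mature miRNA and precursor. The submitters' processing notes name mm10, with aligner, counting tool and miRNA release not given in the sources used here. Per the labels' protocols, libraries were made with the NEBNext small RNA kit from 20 to 100 ng of RNA, for inserts of about 18 to 35 bases. Of the non-zero values, 71.4% were whole within 0.001. Both miR-155 rows had whole values in all 8 libraries and 1 precursor, so neither shares reads with another copy in the table. Values were summed over precursors and rounded.

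miRNAs passing edgeR's filterByExpr (minimum count 10, minimum total 15) were tested with edgeR 4.0.16 (R 4.3.3), TMM scaling and robust quasi-likelihood fits, with age as the only term. Alternatives used DESeq2 1.42.0, limma 3.58.1 (voom), other scalings, filters, a GC offset (loess per library on mature sequences, matched for 83.7%) and a replicate block. The fit was checked on simulated data. Ratios used a pseudocount of 0.5 and exact permutation tests over all 70 divisions of the libraries, whose intervals were found by inverting the test. Total counts of 1281032 to 2606630 put the floor of 3 counts at 1.15 to 2.34 CPM before scaling. Intervals and floors cover counting error only, since reads carry no molecular identifiers. No library was treated as a copy of another, since chi-square over its degrees of freedom was 19.1 to 394 within groups.

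Deviations of same-numbered adult and neonatal libraries correlated at r = 0.256 to 0.415, above 0.1 in 4 of 4 pairs. From this check alone the numbers were used as pairs in the folds by pair, the replicate block and the sign-flip tests. The check does not single these pairs out, since unlike-numbered libraries reached 0.482. The reported edgeR fit and the permutation tests were unpaired. Named were both miR-155 arms, the 12 activation miRNAs, the 8 ratio partners, the 8 nearest patterns at 100 CPM or more, the neighbours in level and on the chromosome, and known targets. The member and the lists were chosen with earlier results of these data known. The ratios to all tested miRNAs, the GC neighbours and the background of arm ratios were added after the values were seen.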

Additional observations from a re-analysis of the deposited data

Results flagged for a closer look

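A single library stood apart among the groups of 4 examined. miR-96-5p of the activation list had 8.0 CPM in neonatal library 1, the lowest of its group, where the other neonatal libraries had 14.8 to 15.7 CPM. The gap took up 0.881 of the group's range, above Dixon's 95% critical value for 4 samples. This was 1 of 68 groups examined, and about 1 in 20 would be marked by chance. No group of either miR-155 arm was marked. Without that library the log2 fold change of miR-96-5p was 0.44, adult over neonatal, and was not called (edgeR's adjusted p = 0.111).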

How the results depend on the processing

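miR-155-5p stayed higher in adult libraries and past the threshold in the 19 alternatives run, with log2 fold changes of 1.12 to 1.76, and of 1.68 to 1.76 without 1 library at a time. With the replicate number as a block it was 1.75 (edgeR's adjusted p = 5.26e-11), and that block changed no call of the miRNAs named and moved no count of calls by over 1.5 times. The number of changed miRNAs ran from 213 to 287 beside 237, with 54.0% of them higher in adult libraries, and 26.8% with library totals. In the replicate block as a sign-flip test within pairs, 8 results could not pass, since 4 pairs allow no p under 0.125: the share of counts (0.0549 percentage points), the arm ratio (1.02) and the log2 ratios to miR-146a-5p (-1.13), miR-21a-5p (1.57), miR-150-5p (0.41), miR-181a-5p (1.95), miR-342-3p (1.06) and miR-16-5p (0.49). Without 1 library at a time the log2 ratio differences were -0.049 to 0.19 for miR-221-3p, whose sign turned without adult library 1, 1.33 to 1.79 for miR-21a-5p, 0.31 to 0.49 for miR-150-5p and 0.39 to 0.58 for miR-16-5p. The cause was not tested. Of 24 single miRNAs followed, 16 kept direction and side of the threshold wherever they were fitted. miR-21a-5p, not called at 0.19, turned to -0.44 with library totals, -0.0066 with upper quartile scaling, -0.22 with the GC offset, -0.24 with the GC offset and block, and -0.059 without adult library 2, in a range of -0.059 to 0.38 without 1 library at a time. miR-21a-5p and miR-150-5p had no value without the 10 most abundant miRNAs, which include them. Depth limits the 3p arm, at 15 to 40 counts a library.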
